A study of Rattus norvegicus with 6 samples.

Results

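The genes described here mark microglia, the resident immune cells of the retina, and macrophages. They are Lyz2, Fcgr3a, Csf1r, Laptm5, Aif1, Cd68, Cx3cr1, Tyrobp and Ptprc, taken as every probe set whose platform annotation gives exactly 1 of these symbols, with no filter on brightness. The array held 12 such probe sets for the 9 genes, out of 31042 probe sets that are not Affymetrix controls. Laptm5, Aif1 and Ptprc had 2 probe sets each and the other genes had 1.

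The arrays measured RNA of captured retinal ganglion cells, which send visual signals to the brain through the optic nerve, from both eyes of 3 adult male Brown Norway rats. All rats had received Fluorogold, a tracer carried back along axons, in the superior colliculus on both sides, and all had raised pressure in 1 eye for 10 days after hypertonic saline was injected into an episcleral vein, with the other eye as the control. From frozen sections of each eye 2000 cells were collected by laser capture, and each eye gave 1 array. The groups are OS, the left eye (n = 3), and OD, the right eye of the same rats (n = 3). The labels do not say which eye had raised pressure, so no OS to OD difference given here can be read as an effect of pressure or of its absence.

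Microglia descend from early myeloid precursors, survive through signals from the receptor tyrosine kinase Csf1r, and sense neurons through the fractalkine receptor Cx3cr1. Activated microglia and macrophages take up debris through Fc receptors and degrade it in lysosomes, where Cd68 resides. They also secrete lysozyme and raise the actin-bundling protein Aif1, also called Iba1, by which they are commonly stained in the retina. In optic nerve injury and glaucoma models these cells are known to gather around damaged ganglion cells.

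Of the 9 genes, 3 had a probe set that was higher in OS than in OD in every rat: lysozyme (Lyz2), the Fc gamma receptor gene Fcgr3a and Aif1. Several of the OD values behind this order, and both Aif1 values of rat 2, were not above background. No probe set of the 9 genes was lower in OS in all 3 rats. None passed the test across the array: 0 of the 12 probe sets had a limma adjusted p under 0.05, against 0.029% of all 31042 probe sets, and 3 had an unadjusted p under 0.05, against 6.26% of all. All 3 were higher in OS, beside 2.91% of all probe sets in that direction, and 0 were lower, beside 3.35%. Being higher in OS in all 3 rats was found for 3 of the 12 and for 14.9% of all probe sets, and 12.2% of all were lower in all 3.

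**Figure D1:**
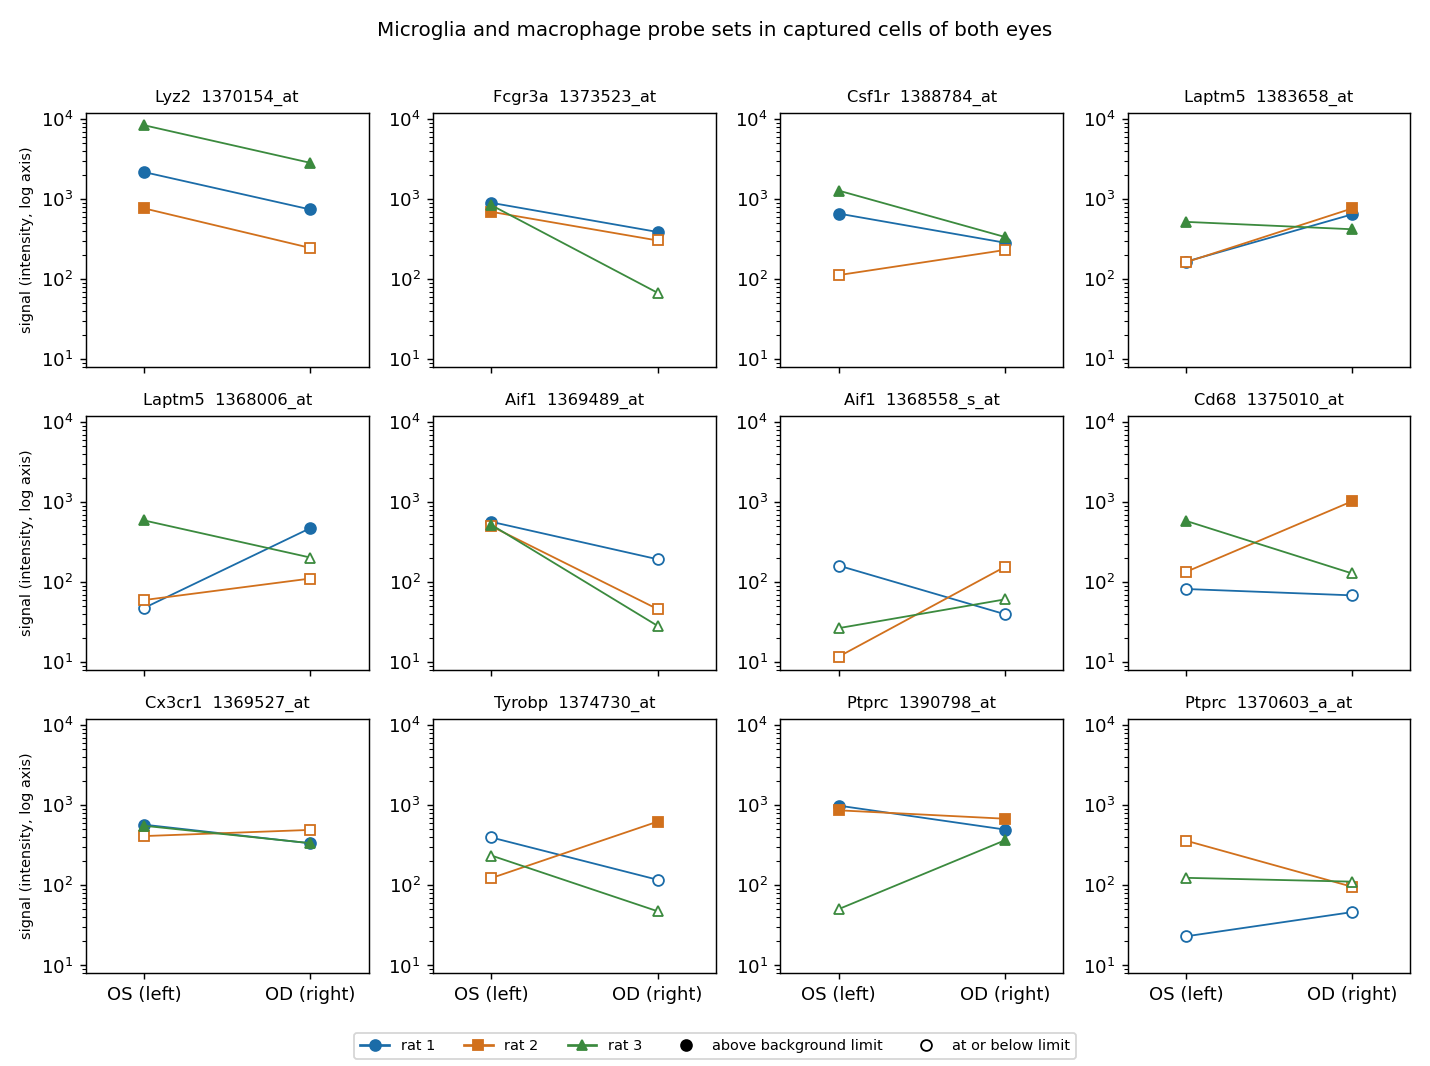
Signal (intensity, logarithmic axis) of the 12 microglia and macrophage probe sets in OS and OD eyes, 1 panel per probe set, with a line joining the eyes of each rat. Filled points lie above the array's background limit and open points at or below it. Lyz2 runs as 3 near-parallel lines, from 769.8 to 8401.7 in OS and from 246.5 to 2847.8 in OD, while the lines of the other probe sets are not parallel.

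Brightness limits what these values can carry. A background limit was set for each array at the 95th percentile of 27 control probe sets for bacterial RNAs, taken here as not added. It lay between 399.6 and 546.57 on OS arrays and between 260.53 and 590.78 on OD arrays. Of the 36 member values in OS, 17 exceeded it, and 16 of the 36 in OD did. The same share over all probe sets was 42.6% in OS and 48.3% in OD. No member probe set exceeded the limit on all 6 arrays, which 11.3% of all probe sets did, and 6 exceeded it on at least 4, against 35.7% of all. These 6 were Lyz2, Fcgr3a, Csf1r, Cx3cr1, 1 of the Laptm5 and 1 of the Ptprc probe sets. An Aif1 and a Ptprc probe set exceeded it on no array, which held for 14.8% of all probe sets. Of 13 marker genes of the labelled cell type, the ganglion cell, each read by its brightest probe set, 8 exceeded the limit on all 6 arrays, among them Thy1, Nefh and Rbpms. On the same basis 15.7% of all genes and 0 of the 9 members did.

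Lyz2 (1370154_at) encodes lysozyme, an enzyme that cleaves bacterial cell walls and that macrophages secrete in large amounts. Its signal was 2185.1, 769.8 and 8401.7 in OS of rats 1, 2 and 3, against 744.9, 246.5 and 2847.8 in OD of the same rats. Every OS value was thus higher than that of the fellow eye, but the eyes overlapped across rats, because rat 3 was brightest and rat 2 dimmest on both sides. The highest rat exceeded the lowest 10.9-fold in OS. Within rats the ratio of OS to OD was 2.93 in rat 1, 3.12 in rat 2 and 2.95 in rat 3, of which that of rat 2 is uncertain, since its OD value was below the background limit. On the scale of log2(signal + 16), on which all differences are given, and which understates the change of dim probe sets, OS exceeded OD by 1.56 ± 0.02 (SD, n = 3 rats). The 95% interval of the limma fit was 0.47 to 2.65, wider than the SD because the fit pools variance over probe sets, and the limma adjusted p was 0.59. The unadjusted p of 0.00577 ranked 301 among the 31042 probe sets. With Lyz2 itself, 4 probe sets, or 0.0129%, had 3 differences as close to each other, and 3 of them, or 0.00966% of all, were higher in OS in each rat. This closeness rests in part on the OD value of rat 2. Lyz2 exceeded the background limit on every OS array and on 2 of 3 OD arrays.

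In these bulk samples, more cells of a type and more RNA per cell cannot be told apart. The order of the 3 rats was the same in both eyes for Lyz2 and for Csf1r, 2 of the 12 probe sets, against 19.9% of all probe sets. For Csf1r the place of rat 2 rests on values below the limit in both eyes.

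Fcgr3a (1373523_at) encodes a low-affinity receptor for the constant part of immunoglobulin G on macrophages and natural killer cells. It read 902.3, 696.4 and 843.1 in OS, against 390.1, 305.5 and 67.8 in OD of rats 1, 2 and 3. All OS values were above all OD values, a separation seen in 2 of the 12 probe sets and in 5.36% of all probe sets in this direction. The reverse separation was seen in 0 of the 12 and in 4.66% of all. The OS values lay within 1.3-fold of each other, and the OD values of rats 2 and 3 were below the limit. OS exceeded OD by 1.89 ± 1.27 (SD, n = 3 rats, limma 95% interval 0.11 to 3.68, adjusted p = 0.772). In OD the limit was exceeded only in rat 1, so the size of this difference is uncertain. Fcer1g (1373575_at), which encodes the signalling chain that Fc receptors of this kind need at the cell surface, exceeded the limit on all 6 arrays, at 635, 1135.6 and 1480.6 in OS, against 699, 1022.3 and 749 in OD. Rats 2 and 3 were higher in OS and rat 1 lower, and on average OS exceeded OD by 0.33 ± 0.57 (SD over 3 rats, limma adjusted p = 0.966).

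Aif1 had 2 probe sets, of which 1 gave values above the limit. This one, 1369489_at, read 570.6, 501.8 and 523.3 in OS, against 194.2, 46.3 and 28.6 in OD of rats 1, 2 and 3. The 3 OS values were close together and all above the OD values. All OD values and the OS value of rat 2 were at or below the background limit. The OS values of rats 1 and 3 were above it. The fitted difference, which uses the dim values as deposited, was 2.71 ± 1.10 (SD, n = 3 rats). Its limma 95% interval was 0.28 to 5.14 and its adjusted p 0.751, and its size is uncertain. With the background limit in place of the OD values, OS exceeded OD only 1.47-fold, and that still includes the OS value of rat 2. The second, 1368558_s_at, lay at or below the limit on all 6 arrays, at 161.9, 11.8 and 26.8 in OS, against 40.0, 156.3 and 61.3 in OD, and gives no fold.

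**Figure D2:**
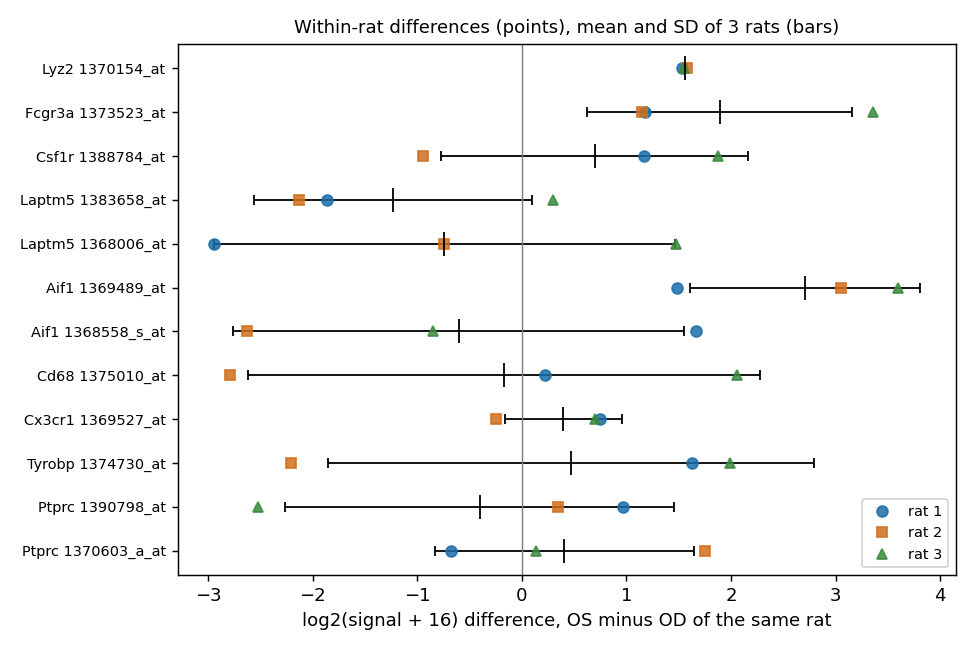
Differences of log2(signal + 16), OS minus OD within each rat, for the 12 probe sets. Points are rats, the vertical tick is the mean and the horizontal bar the SD of 3 rats. Lyz2, Fcgr3a and the brighter Aif1 probe set lie to the right of 0 in all 3 rats, while the other 9 probe sets have rats on both sides of 0.

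Sequence before the start sites of the 2 members that were bright in OS and higher there in every rat is printed here. It is the 250 bases upstream of 1 annotated start per gene, credited to RefSeq on build GRCr8, where 7 of the 9 genes had an entry. For Lyz2 the full annotated extent of the gene ends at 54798060, beyond the start used, so 49 bases of its stretch, with the box, lie inside that extent. The stretches of Csf1r, Cx3cr1 and Ptprc overlap theirs too. Capitals mark the purine-rich box GAGGAA or its reverse complement TTCCTC, the core to which the myeloid transcription factor PU.1 is known to bind. The Lyz2 stretch is chr7:54798012-54798261 on the minus strand, and the Fcgr3a stretch is chr13:85782386-85782635 on the plus strand.
Lyz2: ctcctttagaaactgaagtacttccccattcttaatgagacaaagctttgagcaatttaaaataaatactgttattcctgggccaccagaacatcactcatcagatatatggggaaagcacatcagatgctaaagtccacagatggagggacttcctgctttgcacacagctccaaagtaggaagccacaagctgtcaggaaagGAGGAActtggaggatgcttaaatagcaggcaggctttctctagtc
Fcgr3a: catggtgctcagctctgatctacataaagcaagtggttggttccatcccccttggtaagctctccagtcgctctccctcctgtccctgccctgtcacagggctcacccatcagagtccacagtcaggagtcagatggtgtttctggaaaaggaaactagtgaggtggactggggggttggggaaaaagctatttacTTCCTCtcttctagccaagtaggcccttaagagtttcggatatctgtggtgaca
The box stands at positions -46 to -41 relative to the start of Lyz2, and its reverse complement at -54 to -49 relative to the start of Fcgr3a. On either strand it occurred in 6 of the 7 member stretches (Lyz2, Fcgr3a, Csf1r, Laptm5, Cd68 and Ptprc, but not Cx3cr1) and in 23.3% of 33469 stretches of equal length. The longer GAGGAAG, which contains it, occurred in 3 of 7 and in 10.2% of all. GGAAGT, which shares the letters GGAA with the box but was counted wherever it stood, occurred in 5 of 7 and in 19.2%. The AP-1 sequence TGACTCA and TATAAA occurred in 1 of 7 each, beside 4.05% and 12.9% of all. These motifs were chosen after the sequences had been looked at, and such matches describe letters only.

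Among the remaining surface receptors, Csf1r (1388784_at), the receptor for the growth factors Csf1 and Il34, read 662.2, 112.9 and 1282.6 in OS, against 286.6, 232.3 and 337.8 in OD of rats 1, 2 and 3. It was higher in OS in rats 1 and 3 and lower in rat 2, where both eyes were below the limit. The OS values were spread more widely than the OD values, though the lowest of each eye was below the limit. The mean difference was 0.70 ± 1.47 (SD, n = 3 rats, limma adjusted p = 0.945), and it was 0.11 without rat 3 and 1.52 without rat 2.

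Cx3cr1 (1369527_at), the receptor for the neuronal chemokine fractalkine, varied least of the 12 probe sets across the 6 arrays. Its values were 573.0, 412.6 and 554.9 in OS, against 335.1, 492.7 and 336.5 in OD, and the difference was 0.40 ± 0.56 (SD, n = 3 rats, limma 95% interval -1.32 to 2.12, adjusted p = 0.970). It too was higher in OS in rats 1 and 3 and lower in rat 2, where both eyes were below the limit.

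Ptprc encodes CD45, the phosphatase on the surface of all nucleated blood-lineage cells. Its brighter probe set, 1390798_at, read 990.6, 865.4 and 50.5 in OS, against 497.6, 679.6 and 365.7 in OD of rats 1, 2 and 3. OS was higher in rats 1 and 2, but in rat 3 the OS value lay below the limit and the OD value above it, and the mean difference was -0.40 ± 1.86 (SD, n = 3 rats, limma adjusted p = 0.971). The second probe set, 1370603_a_at, had no value above the limit, from 23.1 to 361.7 in OS and from 46.4 to 111.3 in OD.

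Tyrobp (1374730_at) encodes DAP12, the adaptor through which Trem2 and related myeloid receptors signal. It exceeded the limit only in OD of rat 2, with 396.6, 123.3 and 236.0 in OS, against 117.5, 625.4 and 47.5 in OD. Rats 1 and 3 were higher in OS and rat 2 lower, and no fold is given.

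Of the lysosomal genes, Cd68 (1375010_at), a glycoprotein of macrophage lysosomes, read 82.6, 135.0 and 586.2 in OS, against 68.8, 1031.7 and 129.0 in OD of rats 1, 2 and 3. It exceeded the limit on 1 array of each side, in OS of rat 3 and in OD of rat 2, and the difference was -0.17 ± 2.45 (SD, n = 3 rats, limma adjusted p = 0.993). Laptm5, a lysosomal membrane protein of blood cells, was the member with the most negative mean. Its brighter probe set, 1383658_at, read 166.2, 163.4 and 521.8 in OS, against 648.1, 768.6 and 421.9 in OD, with rats 1 and 2 lower in OS and rat 3 higher. The difference was -1.23 ± 1.33 (SD, n = 3 rats, limma adjusted p = 0.879), and it exceeded the limit on all OD arrays but on only 1 OS array. The second probe set, 1368006_at, had the same direction in each rat, with 47.8, 60.1 and 593.6 in OS, against 475.4, 111.6 and 204.1 in OD. It exceeded the limit only in OS of rat 3 and in OD of rat 1, so its direction in rat 2 is uncertain.

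The members had no common direction. In rat 1, 9 of the 12 probe sets were higher in OS, in rat 3 there were 10, and in rat 2 there were 5. Median differences over the 12 were 1.07, -0.50 and 1.51 in rats 1, 2 and 3, beside medians of 0.12, -0.05 and 0.12 over all probe sets. Averaged over rats, 7 of the 12 were higher in OS, against 52.0% of all. Compared with each other over the 6 arrays, after each probe set was centred on its own mean, Fcgr3a and the brighter Aif1 probe set were the most alike, with a root mean square difference of 0.63 on the log2 scale. The next pair was formed by both Laptm5 probe sets, at 0.88. Lyz2 was nearest to Csf1r, at 1.005.

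Outside the 9 genes, the profiles most like each member were sought among 10429 probe sets of at least median brightness, with the same measure over the 6 arrays. For Lyz2 they were those of Rps6ka3 (root mean square difference 0.18), Agtpbp1 (0.45) and Hsd17b8 (0.46). Rps6ka3 (1397750_at), a growth factor-regulated kinase gene, read 657.2, 215.7 and 2423.9 in OS, against 202.9, 66.4 and 1165.2 in OD. Fcgr3a was nearest to Trak2 (0.16), Apex2 (0.20) and Cul3 (0.24), and Csf1r to Cep164 (0.21), Fosb (0.29) and Uba6 (0.29). Laptm5 was nearest to Cisd2 (0.17), Cds1 (0.19) and LOC100910319 (0.24), Ptprc to Plag1 (0.09), Ank3 (0.11) and Atp6v0e1 (0.16), and the nearly flat Cx3cr1 to Slc27a2, Serping1 and Mtmr3 (0.11 to 0.12). With 6 arrays and so many candidates close matches are frequent, and none of these 18 genes was on a gene list used here.

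Further genes of the same cells were read from lists, each gene by its brightest probe set. As the yardstick, over all 14217 genes with 1 symbol the median difference was -0.02, with 14.0% higher and 13.8% lower in OS in all 3 rats. On the same basis the 9 members had a median of 0.47, with 3 higher and 0 lower in all rats. Leaving out rat 1 or rat 3 gave a median of 0.22 or 0.25, and leaving out rat 2 gave 1.52. Their summed signal, most of it from Lyz2 in rat 3, was 6529.2, 3780.6 and 13000.1 in OS, against 3282.9, 4428.6 and 4582.6 in OD. By limma, 0 genes of the lists passed.

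Of 20 other microglia genes on the array, 1 was higher and 2 were lower in OS in all 3 rats, with a median of 0.16, which was -0.09 without rat 3. By their means 11 were higher and 9 lower. The gene higher in all rats was Itgb2 (1383131_at), the shared beta chain of leukocyte integrins, with 1081.9, 672.6 and 784 in OS, against 433.4, 119 and 45.5 in OD. Its difference was 2.45 ± 1.21 (SD over 3 rats, limma adjusted p = 0.706), with 1 of 3 OD arrays above the limit. Those lower in all rats, named after their values were seen, were P2ry12, a purine receptor, and Tmem119, a membrane protein. P2ry12 read 62.8, 25.3 and 223.8 in OS, against 369.7, 435.2 and 438.9 in OD (limma adjusted p = 0.831). Tmem119 read 417, 43.6 and 295.7 in OS, against 663.1, 783.7 and 374.6 in OD, at -1.57 ± 1.89 (limma adjusted p = 0.861). P2ry12 lay below the limit on all OS arrays and in OD of rat 2, and no fold is given, and Tmem119 lay below it on 2 OS arrays. Only Ctss, a lysosomal protease, and Runx1, a transcription factor also made by neurons, exceeded the limit on all 6 arrays. Runx1, with the smallest p of this list, read 15734, 20665 and 7574.8 in OS, against 16071, 2438.5 and 1639.9 in OD. Its difference was 1.75 ± 1.60 (SD over 3 rats, limma adjusted p = 0.148), with rat 1 slightly lower in OS. Gpr34 and Cd37 exceeded the limit on no array.

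Phagocyte activation genes, 21 on the array, had 7 members higher and 1 lower in OS in all 3 rats, with a median of 0.37. Of these 7, 2 exceeded the background limit on no array and 1 on a single array. The best ranked were Itgax, which was below the limit on all OD arrays and on 2 of 3 OS arrays, and Clec7a, the beta-glucan receptor. Clec7a read 1322.4, 621.1 and 642.1 in OS, against 334.6, 373.5 and 220.3 in OD. Its difference was 1.37 ± 0.62 (SD over 3 rats, limma adjusted p = 0.846), with 1 of 3 OD arrays above the limit. The lysosomal protease gene Ctsb, above the limit on all arrays, differed by 0.05 ± 0.16 (limma adjusted p = 0.994). Fc receptor and ITAM signalling genes had 1 of 10 higher in all rats, the kinase gene Syk at 1.27 ± 1.05 (limma adjusted p = 0.846), and 1 lower, with a median of 0.28 (0.03 without rat 1). Syk exceeded the limit on 2 of 3 OD arrays.

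Ligands of microglial receptors gave 0 of 9 higher and 1 lower in all 3 rats, with a median of -0.59 (-0.16 without rat 2). The gene lower in all rats was Cd200, a neuronal surface protein that restrains microglia, at 245.4, 52.9 and 134.5 in OS, against 689.4, 374.4 and 779.6 in OD. All OS values and the OD value of rat 2 were below the limit, and the OD values of rats 1 and 3 were above it. No fold over the 3 rats is given (limma adjusted p = 0.805). The Csf1r ligand gene Csf1 exceeded the limit on all 6 arrays, with 2214.6, 2197.2 and 1788.3 in OS, against 595.1, 2423.4 and 997.9 in OD, or 0.85 ± 1.004 (SD over 3 rats, limma adjusted p = 0.861). Class II antigen presentation genes had 0 of 10 higher and 2 lower in all rats. Of these 2, 1 exceeded the limit on no array, and the other, Cd74, on all 3 OD arrays but on no OS array. Cytokines and chemokines had 2 of 12 higher and 2 lower in all rats. Of the 2 higher cytokine and chemokine genes, 1 exceeded the limit on no array.

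**Figure D3:**
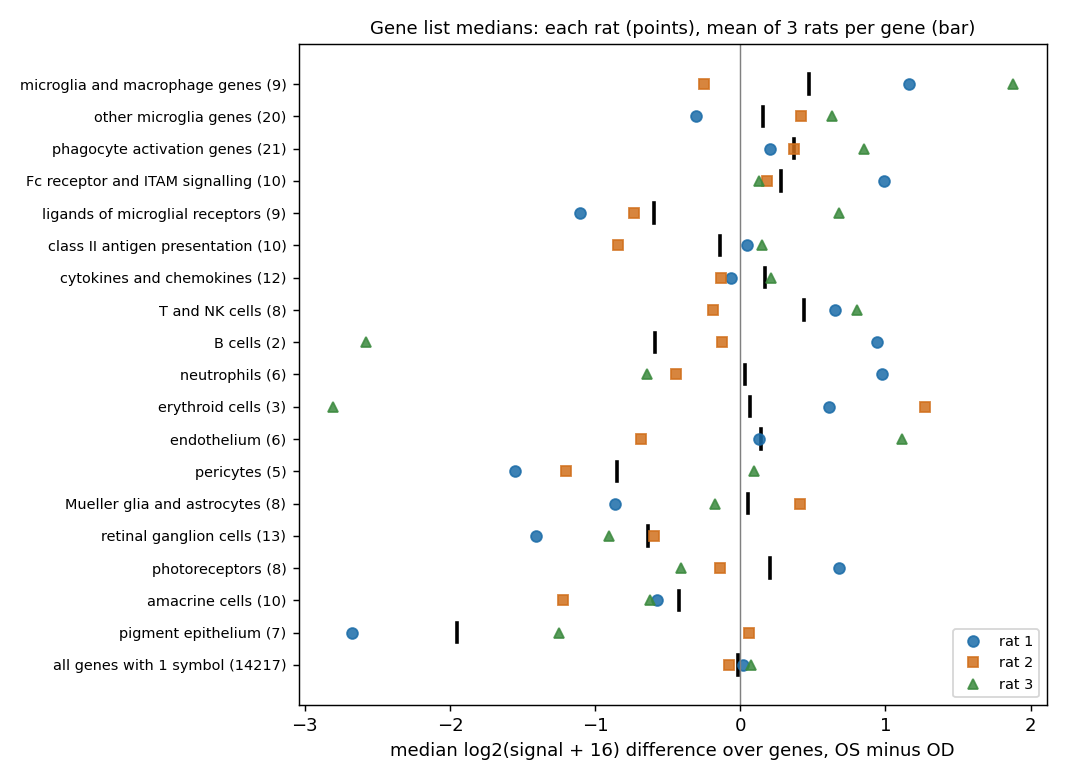
Median OS minus OD difference of log2(signal + 16) over the genes of each list, with the number of genes in brackets. Points are rats and the black bar is the median of the 3-rat means. The microglia and macrophage genes lie at 1.16, -0.25 and 1.88 in rats 1, 2 and 3, with a bar at 0.47. Ganglion cell and amacrine cell markers lie below 0 in each rat, phagocyte activation and Fc receptor genes lie above 0 in each rat, and all genes lie near 0.

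Markers of other cells give the setting of these values. Of the blood-cell lists, 0 of 8 T and NK cell, 0 of 2 B cell, 0 of 6 neutrophil and 0 of 3 erythroid genes exceeded the background limit on all 6 arrays, beside 0 of the 9 members and 15.7% of all genes, and 2 of the 8 T and NK cell genes exceeded it on at least 4. The summed signal of the T and NK cell genes ran from 2494.9 to 2678 in OS and from 1660.5 to 3234.1 in OD, and that of the neutrophil genes from 625.5 to 1630.5 in OS and from 324.2 to 2021.1 in OD. In this T and NK cell list Lck, a kinase of T cells, had higher OS values in each rat, by 1.70 ± 1.57 on average (SD over 3 rats, limma adjusted p = 0.831). Lck exceeded the limit on 1 of 3 OD arrays, and Cd3d was lower in 3 of 3 rats with no array above the limit.

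Of the ganglion cell markers, 0 of 13 were higher and 8 were lower in OS in all 3 rats, and 2 of the 13 had a higher mean in OS. None passed (lowest limma adjusted p = 0.149, for Nefh). The list had a median of -0.64 and a summed signal of 14219.6 to 19585.2 in OS and 24876.6 to 33947.1 in OD. The ratio of the 3' to the 5' beta-actin control, a sign of RNA length, was also higher in OS of each rat. Its log2 difference was 1.32 ± 0.52 (SD, n = 3 rats). The Gapdh ratio was higher in OS of rats 1 and 2 and lower in rat 3, with a log2 difference of -0.46 ± 1.86 (SD, n = 3 rats). On the log2 scale the Gapdh ratio was 4.41 in OD of rat 3 and 0.67 to 1.83 on the other arrays. Of the retinal neighbours, 0 of 8 photoreceptor, 0 of 10 amacrine cell and 0 of 7 pigment epithelium genes were higher in OS in all 3 rats, and 1, 4 and 3 of them were lower. The pigment epithelium list had a median of -1.95, though rat 2 alone gave 0.06. Its summed signal was 2336.8, 4794.1 and 4975.8 in OS, against 9097.9, 6888.7 and 36095.4 in OD of rats 1, 2 and 3. Of 8 genes of Mueller glia and astrocytes, 1 was higher, with no array above the limit, and 0 were lower. Of 6 endothelial genes 0 were higher and 1 was lower, and of 5 pericyte genes 0 were higher and 2 were lower. The part of other cells, of ganglion cell content and of RNA quality in the immune gene differences was not tested.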

How the data were processed

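The authors deposited 1 linear intensity value per probe set and array, made with GCOS according to the submitters' processing notes (version and settings: not given in the sources used here). Per the labels' protocols, a PicoPure kit was used to isolate the RNA and a RiboAmp HS kit to amplify it, and 10 µg was biotin-labelled. On all 6 arrays the mean without the top and bottom 2% of values was 500.1, so the deposited values were taken as already scaled, and were not normalized again. That scaling hides any difference in total RNA. The number of arrays limits the precision.

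Of 31099 probe sets, 57 controls were left out. The platform annotation gave 1 symbol for 20826 of the other 31042, several for 436 and none for 9780. Eyes were paired by rat, since the titles give both eyes of an animal its number. Deviations from the group means correlated between eyes of a rat at 0.0458, 0.0581 and 0.191 in rats 1, 2 and 3. Between eyes of different rats the correlations ran from -0.11 to 0.0654, the highest for OS of rat 1 with OD of rat 2. The pairing thus rests on the labels.

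Differences of log2(value + 16) were tested in R 4.3.3 by limma 3.58.1 (rat as a fixed block, intensity trend, two-sided, Benjamini-Hochberg over all 31042 probe sets, threshold 0.05), with no brightness filter. All p-values are from limma. With 2 residual against 71.03 prior degrees of freedom they depend largely on the pooled variance. Where all 3 arrays of a side were at or below the background limit, the fitted difference uses the dim values as deposited and is not a lower bound. A fold against such a side, given only for Aif1, has the limit in place of dimmer signals.

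The members and gene lists were chosen with earlier results of these data known. Every member probe set is described. A member with at least 4 of 6 arrays above the limit is given its 3 nearest genes, and other lists name at most the 2 genes with the smallest p and those above the limit on all 6 arrays. P2ry12, Tmem119, Gpr34 and Cd37 fall outside this rule. Alternatives were other offsets, a brightness filter, quantile normalization, other blocks and prior variances, and leaving out each rat.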

Additional observations from a re-analysis of the deposited data

How the results depend on the processing

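Under each of 11 alternatives, 0 member probe sets passed the limma threshold of 0.05, with 0 to 3 at an unadjusted p under 0.05 (0 without rat 3). The lowest adjusted p of any member was 0.369, for Lyz2 without rat 2. The count of 9 among all probe sets was 4 with an offset of 1, 23 with an offset of 64, and 2 with the median brightness filter. With no replicate block it was 0, with rat as random replicate block 0, and with no intensity trend 0, where 1326, 1702 and 1778 probe sets had an unadjusted p under 0.05. It ran from 8 to 114 with 1 rat left out, the highest without rat 2; the cause was not tested. Lyz2, Fcgr3a and the brighter Aif1 probe set kept their direction in every alternative that tested them, between 1.48 and 1.62, 1.16 and 2.27, and 2.11 and 3.33. The Aif1 range uses OD values that were all at or below the background limit, so its size is uncertain. The median brightness filter kept 6 of the 12 probe sets and removed both of Aif1. With 1 rat left out, differences ran from -1.85 to 0.36 for Laptm5 1368006_at (opposite without rat 1), -1.74 to 0.41 for Aif1 1368558_s_at (without rat 2), -1.29 to 1.14 for Cd68 (without rat 2) and -0.29 to 1.81 for Tyrobp (without rat 1, -0.11, or rat 3). They ran from -1.09 to 0.66 for Ptprc 1390798_at (opposite without rat 3) and -0.27 to 0.95 for Ptprc 1370603_a_at (without rat 2). Without turning they ran from 0.11 to 1.52 for Csf1r, 0.22 to 0.72 for Cx3cr1 and -1.997 to -0.78 for Laptm5 1383658_at. The other alternatives turned 0 member differences. List medians with 1 rat left out ran from 0.22 to 1.52 for the 9 members, -0.09 to 0.27 for other microglia genes, 0.34 to 0.61 for phagocyte activation, 0.03 to 0.57 for Fc receptor signalling, -0.45 to -0.16 for ligands and -1.07 to -0.69 for ganglion cells. Of 72 member values, 33 exceeded the background limit, against 21 with the highest bacterial control as the limit and 58 with their median. Without detection calls in the values used here, signal over background sets what dim probe sets can show.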
